A study of Mus musculus with 5 samples.

Results

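REST, the RE1-silencing transcription factor, was profiled by ChIP-seq in the embryonic mouse pancreas. In all, 241 sites were called as peaks in both E13.5 libraries and again in at least 2 of the 3 E18.5 libraries. These sites were chosen by their calls: peaks of the 5 deposited lists that overlapped by 1 bp or more were merged into 1849 sites on assembled chromosomes, 1183 of which had a peak in both E13.5 libraries. The 241 members make up 20.4% of these 1183 sites. Another 236 sites had a peak in exactly 1 E18.5 library and 706 had none. Since the calls chose the members, their number and their presence at E18.5 are a description and carry no test.

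REST was measured in whole pancreas of untreated wild-type embryos on a mixed background with C57BL/6, using the mouse monoclonal antibody 12C11. The E13.5 stage had 2 biological replicates (A and B), which pooled 4 to 6 pancreases each. The E18.5 stage had 3 (A, B and C), with 3 to 4 pancreases pooled in each. The E13.5 lists held 1400 and 1333 peaks, while the E18.5 lists held 541, 417 and 226. Read depth is unknown, so a missing peak at E18.5 does not measure the absence of REST, and fewer cells with REST on a site cannot be told apart from weaker enrichment. Peak lists hold no expression values, so the labelled tissue could not be checked against marker genes.

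REST is a zinc-finger repressor that keeps neuronal genes silent outside neurons by recruiting corepressor complexes with histone deacetylases and demethylases. It reads the RE1 element, which consists of a left and a right half-site separated by a short spacer. In the pancreas, endocrine cells share many genes with neurons, including those for hormone granules and regulated exocytosis, and REST is low in mature endocrine cells.

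The RE1 was searched as TTCAGCACC followed after 2 bases by GGACAGCGC, on both strands, in 500-bp windows centred on the E13.5 peaks. A match allowed at most 4 mismatches in the 18 half-site bases. The sequences are from mm9 and run 5′ to 3′ on the strand that carries the element, and capitals mark each base that equals the half-site letter. The first set shows 6 members whose element had no mismatch, because such elements were most often found among the members.

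Prmt8, chr6:127717988-127718017, minus strand: ccccaTTCAGCACCagGGACAGCGCccgcg
Prdm11, chr2:92911993-92912022, minus strand: cgcgcTTCAGCACCgcGGACAGCGCccgcc
March11, chr15:26239609-26239638, plus strand: gagctTTCAGCACCacGGACAGCGCacgcc
Lhx3, chr2:26063788-26063817, minus strand: cctccTTCAGCACCgcGGACAGCGCcagcc
Rapgef1, chr2:29429285-29429314, plus strand: aggggTTCAGCACCacGGACAGCGCcatgg
Chrnb2, chr3:89568372-89568401, minus strand: gcggcTTCAGCACCacGGACAGCGCtccgt

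These elements lay in introns of Prmt8 and March11, in a UTR of Chrnb2 and between genes at Lhx3, Prdm11 and Rapgef1. They are named by the nearest protein-coding start site, which was 0.034 kb away at Lhx3 and 45.9 kb away at Rapgef1. The second set shows members that ranked high in all 5 libraries or that belong to genes of neurons and endocrine cells.

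Scrt1, chr15:76352682-76352711, plus strand: gcagcTTCAGCACCgcGGcCAGCGCtggct
Npas4, chr19:4989155-4989184, plus strand: tgggaTTCAGCACCgcGGACAGCtCctgcg
Glra1, chr11:55421434-55421463, plus strand: gcaggTTCAGCACCacGGAgAGCGtccagc
Snap25, chr2:136540069-136540098, plus strand: gacctTTCAGCACCgcGGACAGCGatccgg
Vgf, chr5:137506140-137506169, minus strand: ccggcTTCAGCACgctGGACAGCGCccgcg
Chga, chr12:103793443-103793472, plus strand: gaggaTTCAGCACCtcGGACAGCaCcaggt
Neurod1, chr2:79294480-79294509, minus strand: cgcccTaCgGCACCatGGACAGCtCccacg
Mir132, chr11:74987020-74987049, minus strand: actgcaTCAGCACCgcGGACAGCGgcgcag

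For comparison, the next sequences are from the 3 sites with at most 2 mismatches that ranked highest at E13.5 among those with no peak at E18.5.

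Crhr2, chr6:55058496-55058525, plus strand: gaccaTTCAGCACCacGGACAGCaaaacca
Col5a3, chr9:20617629-20617658, minus strand: acggcaTCAGCACCatGGACAGgGCccacg
Xkr6, chr14:64332133-64332162, plus strand: atggcTTCAGCACCaaGGACAGaGatgttc

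The members made up a small share of the E13.5 lists, 17.2% of A and 18.1% of B, and a larger share of the shorter E18.5 lists, 38.6% of A, 47.2% of B and 82.3% of C. The deposited score of a peak has no stated unit, so it was turned into a percentile of its own library, with 100 for the top peak. Members had a median percentile of 86.9 in E13.5 A and 87.3 in E13.5 B, and of 70.1 in E18.5 A, 66.2 in E18.5 B and 51.1 in E18.5 C. Each value is a position within its own list, and since the lists differ in length and in the share of members, no change between stages was read from them. Of the 241 members 110 were called in all 3 E18.5 libraries, 55 in A and B, 44 in A and C and 32 in B and C. When both remaining E18.5 libraries were required, leaving out A gave 142 members and leaving out B gave 154. Across members the ranks of the E13.5 libraries had a Spearman correlation of 0.80 (n = 241 sites), and between E13.5 and E18.5 libraries it lay between 0.40 and 0.60, which describes the same sites in different libraries and is given without a p.

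**Figure D1:**
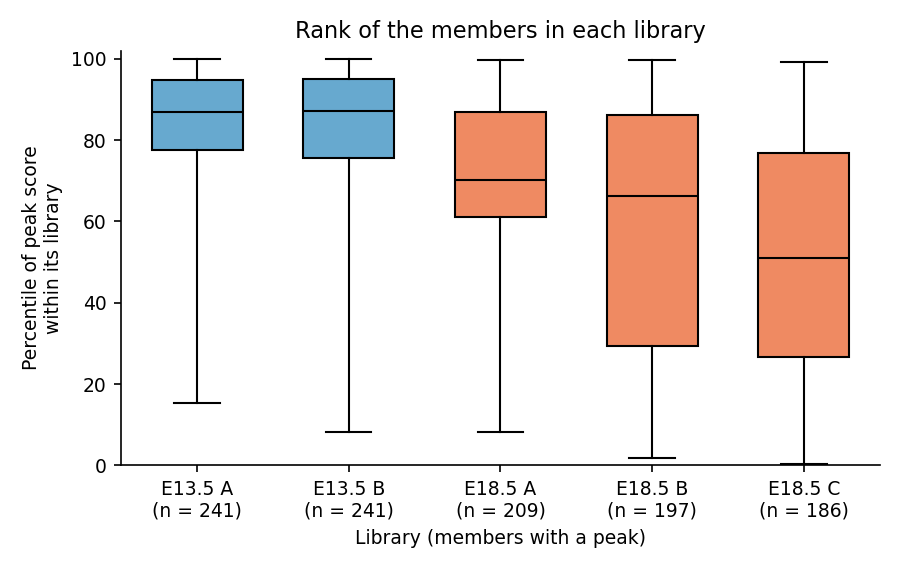
Percentile of the peak score within its library for every member with a peak in that library (boxes: quartiles and median, whiskers: lowest and highest). The median is 86.9 and 87.3 in the E13.5 libraries and between 51.1 and 70.1 in the E18.5 libraries, whose lists are shorter and hold a larger share of members.

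Rank at E13.5 went with a call at E18.5. When the 1183 shared sites were divided into quintiles by their mean E13.5 percentile, 2.11% of the lowest quintile were members, then 2.54%, 7.59% and 19.9%, and 69.6% of the highest (165 of 237 sites, exact 95% interval 63.3 to 75.4). Some members ranked low at E13.5. The lowest was a site 24.9 kb from Rpp21 with a mean E13.5 percentile of 17.6, and the third lowest was in an intron of Pomc, the precursor of several peptide hormones, with 22.6. Outside the members, the highest-ranked site with no E18.5 peak had a mean percentile of 92.7, and the highest with 1 E18.5 peak was nearest to Gjb5 and had 96.6.

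The members just inside the limit had 2 weak E18.5 peaks. The site between Wfs1 and Jakmip1 had scores of 13 and 19 at E13.5 and of 5 and 3 in E18.5 A and B, and that near Lhx1, a homeobox gene, had 22 and 11 at E13.5 and 4 and 5 in E18.5 B and C. Just outside it were sites with a single E18.5 peak, such as the one 0.1 kb from a start site of Osbp2, with scores of 38 and 38 at E13.5 and 9 in E18.5 B. The scores of these members at E18.5 were not above those of the excluded sites.

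The 12 members named next had the highest minimum percentile over the 5 libraries. At Scrt1, a zinc-finger repressor of the nervous system, the site 0.16 kb from the start (chr15:76352421-76353012), had scores of 70 and 107 at E13.5, then 21, 68 and 51 at E18.5. The intronic site of Npas4, which neurons induce upon activity (chr19:4988875-4989467), had 65 and 110 at E13.5, then 35, 16 and 24 at E18.5. Both ranked above the 89th percentile in every library. The site at the UTR of Cacng2, which encodes an auxiliary subunit of glutamate receptors and calcium channels (chr15:77950013-77950719), had 51 and 95 and then 30, 26 and 28. The glycine receptor gene Glra1 (chr11:55421150-55421716) had 44 and 70 and then 21, 18 and 24. An intronic site of Phf21b, whose paralogue is part of a REST corepressor complex (chr15:84659715-84660328), had 61 and 85 and then 25, 18 and 26. The other members of this kind were near Insm2, a zinc-finger gene, Ap3b2, a neuronal vesicle-coat gene, 2310047B19Rik and Cdk5rap2, together with 3 sites of recurring sequence described further on. The Cdk5rap2 site had 32 and 47 and then 46, 13 and 34. Like these 3 sites, it held no half-site with at most 1 mismatch.

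**Figure D2:**
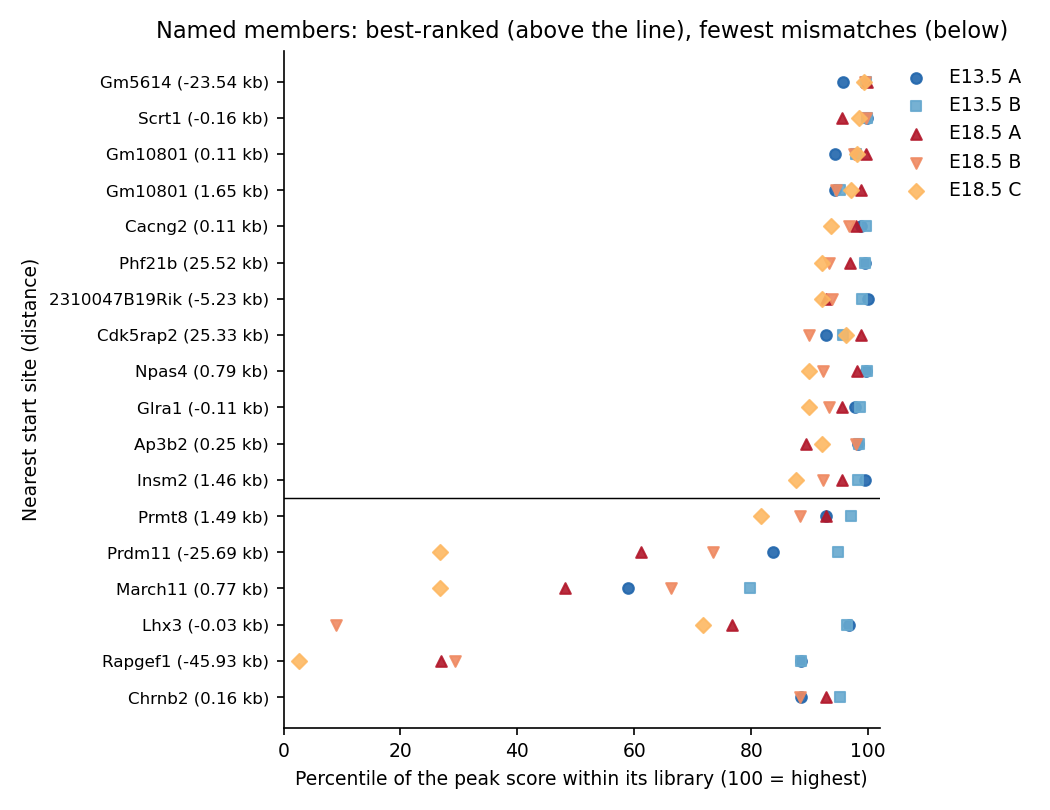
Percentile of the peak score within each of the 5 libraries (marker shape and colour) for the 12 members with the highest minimum percentile (above the line) and the 6 with no mismatch (below), labelled by nearest start site and distance. The upper group sits at 87.6 or above in all libraries, while the lower group spreads from 2.65 to 97.0, and Chrnb2 has no peak in E18.5 C.

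An RE1 was no more frequent in members than in sites that were not called at E18.5. It was present in 174 of 241 members (72.2%, exact 95% interval 66.1 to 77.8), in 72.9% of sites with 1 E18.5 peak and in 70.4% of those with none. The difference between members and sites with no E18.5 peak was 1.80 percentage points (Newcombe interval −5.0 to 8.12). In windows 10 kb away the share was 0.592% over all 1183 sites. Sites are not replicates, and these intervals cover counting error over sites only. Within quintiles of E13.5 rank the weighted difference was −2.11 points (SE 5.07). Allowing at most 3 mismatches moved the first difference to 8.12 points (0.882 to 15.1).

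Elements close to the consensus were more frequent in members than in sites with no E18.5 peak. Elements with at most 1 mismatch, a class chosen after the values were seen, were found in 48 members (19.9%, 15.1 to 25.5), in 15.3% of sites with 1 E18.5 peak and in 6.80% of those with none. The difference from sites with 1 E18.5 peak was 4.66 points (−2.20 to 11.5). From sites with no E18.5 peak it was 13.1 points (8.10 to 18.9), and within quintiles of E13.5 rank 9.27 points (SE 3.84). The latter had an interval of 1.73 to 16.8, which reached below 0 without E18.5 B (5.81 points, −3.99 to 15.6), with all 3 E18.5 libraries required (−0.316 to 24.2), at scores of 13 or more (−8.35 to 17.2) and with equal list lengths (−2.0 to 25.5). Of the 15 elements without a mismatch 10 belonged to members, 4 to sites with 1 E18.5 peak and 1 to a site with none. The share of members was 66.7% for 0 mismatches, 32.5% for 1, 24.1% for 2, 13.2% for 3 and 14.9% for 4, against 20.4% over all sites. Beyond the limit for an RE1 it was 16.3% for 5, 25% for 6, 18.7% for 7 and 16.7% for 8, so it fell no further after 3. Across the 174 members with an element, mismatches and mean E13.5 percentile had a Spearman correlation of −0.07, given as a description.

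Both half-sites were closer to the consensus in members than in sites with no E18.5 peak. The right was intact in 19.5% of the member elements and in 7.85% of elements at sites with no E18.5 peak, and the left in 37.9% and 25.8%. In mean mismatches the right half-site differed more, with 1.20 in members and 1.62 in sites with no E18.5 peak, against 0.954 and 1.11 in the left. Elements at sites with 1 E18.5 peak had the right half-site intact in 8.72% and the left in 36.6%, with mean mismatches of 1.44 and 0.878, so the left was no closer to the consensus in members than in these. At position 18 of the 20-base element, counted from its 5′ end, the consensus base was present in 83.9% of members and 64.0% of sites not called at E18.5, and at position 19 in 56.3% and 44.3%. In the left half-site position 6 differed most, with 75.3% and 61.8%. At position 1 the shares were 59.8% and 59.2%.

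**Figure D3:**
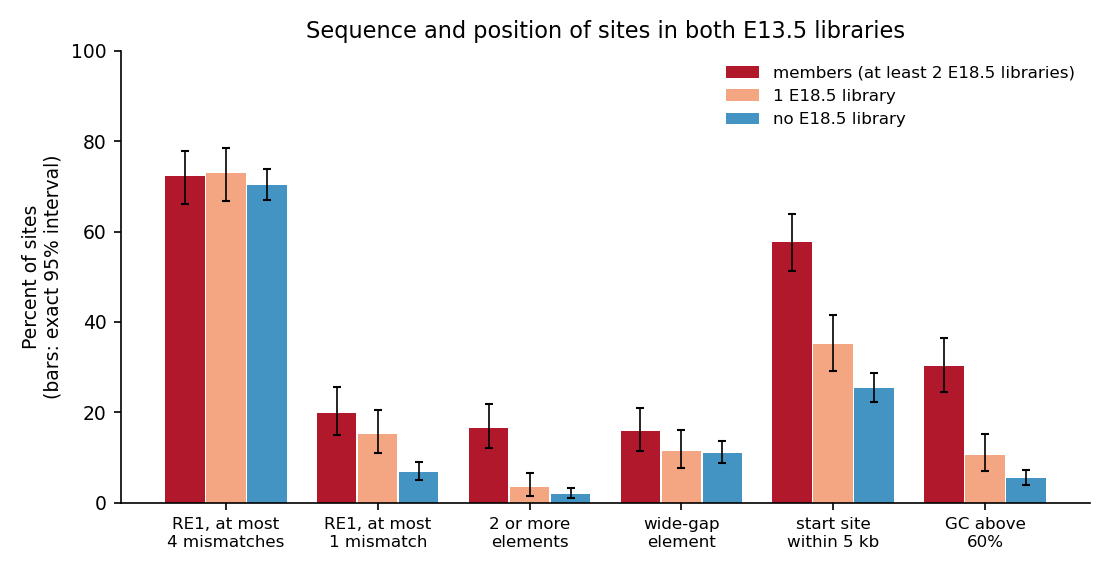
Percent of sites with each sequence or position feature among members (dark red), sites with 1 E18.5 peak (light red) and sites with none (blue), with exact 95% intervals. The RE1 share is 72.2%, 72.9% and 70.4%, whereas the share within 5 kb of a start site is 57.7%, 35.2% and 25.4%.

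Several members held more than 1 RE1. Counting elements that did not overlap each other, 40 members had 2 or more in the 500-bp window (16.6%, 12.1 to 21.9), against 8 sites with 1 E18.5 peak (3.39%) and 14 with none (1.98%), and 0 of the 1183 windows 10 kb away (exact upper bound 0.311%). This count was made after the values were seen. The difference between members and sites with no E18.5 peak was 14.6 points (10.2 to 19.9). All 40 members with several elements fell into the top quintile by E13.5 rank, and within quintiles the weighted difference was 0.037 points (SE 2.2). That value depended on the calls used, being 8.61 points (2.07 to 15.2) without E18.5 A, 8.21 (1.68 to 14.7) without E18.5 B and 28.4 (15 to 41.8) at scores of 13 or more. In that quintile 83.3% of sites with several elements were members (40 of 48, 69.8 to 92.5), against 66.4% with 1 element and 65.7% with none. In quintile 4 the order was the reverse, with 0 of 9 (0 to 33.6), against 19.0% with 1 element and 26.4% with none. The elements lay on the same strand in 38 of the 40 members, at a median step of 46.8 bp. So did those of 7 of the 8 sites with 1 E18.5 peak and 11 of the 14 with none, with median steps of 41 and 44 bp.

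An intronic site of Camta1, a calmodulin-binding transcription activator, had the most elements, 6, all on 1 strand (chr4:150978448-150979502, scores 53 and 82 at E13.5, then 9, 6 and 18 at E18.5). Kcnk9, which encodes a background potassium channel, had 4 in a site 22.5 kb upstream of its start (chr15:72398824-72399480), and this site had the highest mean E13.5 percentile of all members with several elements, with scores of 70 and 119 at E13.5, then 26, 9 and 30 at E18.5. Npas4 also had 4. Its intronic stretch and that of Kcnk9, between genes, are shown because they hold all 4 elements, with capitals for the matching bases of each.

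Npas4, chr19:4989116-4989263, plus strand: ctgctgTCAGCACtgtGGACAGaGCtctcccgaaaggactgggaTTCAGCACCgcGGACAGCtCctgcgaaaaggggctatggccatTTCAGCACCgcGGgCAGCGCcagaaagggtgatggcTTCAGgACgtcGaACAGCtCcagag
Kcnk9, chr15:72399083-72399239, minus strand: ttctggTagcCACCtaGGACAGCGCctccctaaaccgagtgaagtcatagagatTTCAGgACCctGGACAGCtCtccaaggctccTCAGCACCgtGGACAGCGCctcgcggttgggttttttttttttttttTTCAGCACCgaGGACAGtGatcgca

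Of the 67 members without an RE1 at the 2-base spacing, 38 had both half-sites 7 to 11 bases apart with at most 3 mismatches (15.8% of members, 11.4 to 21.0). This class was set after the values were seen. It held 11.4% of sites with 1 E18.5 peak, 11% of those with none (difference 4.72 points, −0.0619 to 10.3) and 0.423% of windows 10 kb away. The most common spacing among these members was 8 bases, in 15 of the 38. The wide-gap elements with the highest minimum percentile were as follows, the spacer being in lower case between the half-sites.

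Unc13a, chr8:74195624-74195653, plus strand: gcTTCAGCACCgggggcgcGGACAGCGCct
Ccdc64, chr5:116181506-116181534, minus strand: cTTCAGCACCcgccgagccGGACAGCGCc
Lrp11, chr10:7309615-7309643, minus strand: ggaTCAGCACCggcgtgcGGACAGCGgct
Bai3, chr1:25285609-25285637, minus strand: tTTCAGCACCtccggcgctGGACAGCtCt
Unc80, chr1:66514717-66514745, minus strand: tTTCAGCACCtcccactgtGGACAGCGgc
Pax5, chr4:44717339-44717368, plus strand: tTTCAGgACCcgctgcgtgtGGACAGCGCc

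Wide-gap members were close to promoters: 30 of the 38 lay within 5 kb of a start site (78.9%, 62.7 to 90.4), against 52.9% of the 174 members with the 2-base spacing (45.2 to 60.5). Unc13a, a vesicle-priming factor, had both half-sites intact at 8 bases, 0.015 kb from its start. Insm2 had a shorter spacer, 1 base, with 1 mismatch. Of the remaining 29 members 8 had no half-site, allowing at most 1 mismatch in its 9 bases. Where these 8 had a peak, their median percentile was 98.7 in E18.5 A, 84.9 in B and 96.2 in C. For members with the 2-base spacing it was 70.1, 66.2 and 51.1. The other 21 of the 29 held at least 1 half-site with at most 1 mismatch, as did 17.2% of windows 10 kb away. Some of these 21 members held both half-sites at other spacings with at most 3 mismatches, 6 with no spacer and 4, Insm2 among them, with 1 base.

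Insm2, chr12:56701365-56701393, plus strand: agacggTCAGCACCgGGACAGCGCcgcgc

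Members lay closer to start sites than the other sites did. Within 5 kb of a protein-coding start were 139 members (57.7%, 51.2 to 64.0), 35.2% of sites with 1 E18.5 peak and 25.4% of sites with none. The difference between the first and the last was 32.3 points (25.2 to 39.1), and it was 15.6 points when called and uncalled sites were split by E18.5 A alone, 30.9 by B and 25.1 by C. Within quintiles of E13.5 rank it was 20.7 points (SE 5.45). In the highest quintile, 77.3% of sites near a start were members (69.2 to 84.1) and 60% of sites farther away (50 to 69.4). In quintile 4 the shares were 30% (20.3 to 41.3) and 14.7% (9.58 to 21.3). With 1 kb in place of 5 kb as the limit, the difference within quintiles fell to 9.98 points (0.144 to 19.8). Exons held 21.6% of members and 7.51% of sites with no E18.5 peak, introns 37.8% of members, and 27 members were over 50 kb from any protein-coding start.

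**Figure D4:**
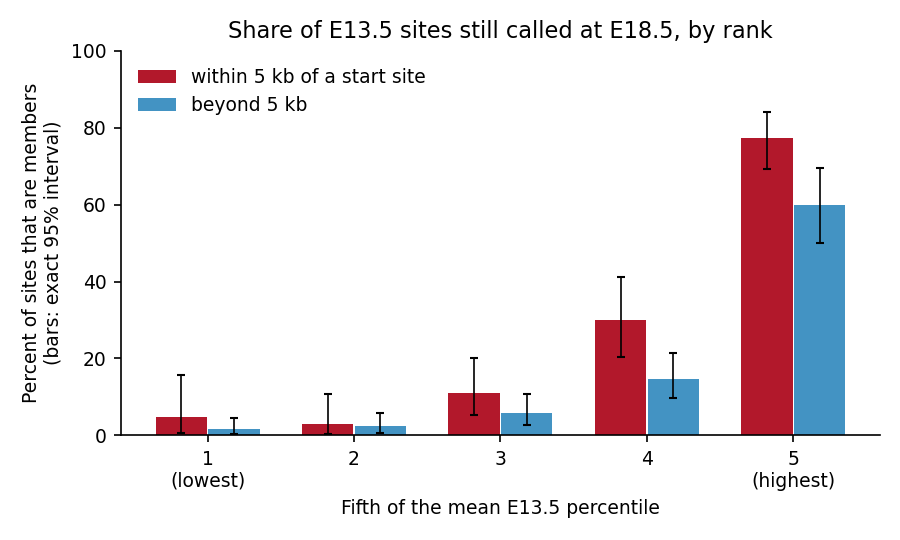
Percent of sites that are members in each quintile of the mean E13.5 percentile, for sites within 5 kb of a start site (red) and farther away (blue), with exact 95% intervals. In the highest quintile the shares are 77.3% and 60%, and in the lowest 4.65% and 1.55%.

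Base composition moved with promoter position. Windows of members had a median GC content of 54.2%, against 49.4% with 1 E18.5 peak and 48.6% with none. GC content above 60%, a limit set after the values were seen, was found in 30.3% of members (24.6 to 36.5), 10.6% and 5.38%, and within quintiles of E13.5 rank the difference between members and sites with no E18.5 peak was 15.1 points (SE 3.92). Of members near a start 51.1% passed this limit, and of those farther away 1.96%. The libraries were unequal: the difference between called and uncalled sites was 9.78 points (5.45 to 14.6) for E18.5 A, 24.5 (19.1 to 30.3) for B and 23.5 (17.4 to 30.1) for C. Among members called in B and C but not A, 15 of 32 passed the limit (46.9%, 29.1 to 65.3), against 9 of 55 called in A and B (16.4%, 7.77 to 28.8). The part of GC content in these calls was not tested. Scrt2, a paralogue of Scrt1, is a member of the former kind (chr2:151907405-151907974), with scores of 27 and 38 at E13.5, none in E18.5 A, and 40 and 23 in B and C. The same held for Kcnk3, a potassium channel gene (chr5:30890192-30890770), with 18 and 21 and then 23 and 17 in B and C.

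In all, 9 members had windows in which over 20% of the 32-base words occur elsewhere in the genome. Of these, 4 had no half-site, namely both sites at the predicted gene Gm10801 (chr2:98502153-98502904 and chr2:98503718-98504485), one near Gm17535 (chr9:3033949-3034491) and one 23.5 kb from Gm5614 (chr9:35112597-35113318). The last had scores of 37 and 103 at E13.5, then 106, 57 and 98 at E18.5. It thus led all members by minimum percentile without an RE1. Whether the calls at these 4 sites reflect REST binding was not tested. Of the 8 sites called in at least 2 E18.5 libraries but not in both E13.5 libraries, 7 were of this recurring kind, and the eighth was in an intron of Rest itself (chr5:77694792-77695424), with scores of 11 in E13.5 A, 14 in E18.5 B and 9 in E18.5 C. Without sites of recurring words the difference near start sites was 32.7 points (25.5 to 39.6).

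Genes were assigned to sites by basal-plus-extension domains. The members fell in the domains of 357 of 22225 protein-coding genes (1.61%), which is 23.4% of the 1523 genes given a site in both E13.5 libraries. These shares are the background for the lists below, whose genes were given a member partly because the calls chose the members, so list counts are a description. Over 25 lists, 213 genes had an E13.5 site and 78 had a member.

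Among lists of 10 or more bound genes, granule genes had the highest share of bound genes with a member, 7 of 10. They were the granins Chga, Chgb, Scg2, Scg3 and Vgf, which shape secretory granules or are cut into peptides there, the receptor-like granule phosphatase Ptprn2 and the calcium sensor Scgn. All 7 sites were within 0.6 kb of a start. All 10 bound genes of this list had an E13.5 site within 5 kb of a start, where sites were more often members. The share of 23.4% over all bound genes covers sites at any distance, so it is not a matched background for this list. Vgf (chr5:137505884-137506452) had scores of 33 and 50 at E13.5, then 11, 13 and 19 at E18.5, Scg3 (chr9:75531484-75532053) had 42 and 46 and then 5, 5 and 13, and Ptprn2 (chr12:117723949-117724536) had 39 and 48 and then 5, 22 and 22. Chga (chr12:103793142-103793720) had 25 and 32, then 13 and 6 in A and B, and no peak in C. Chgb (chr2:132607284-132607884) had 26 and 61, then 13 and 11 in A and C. The prohormone convertase genes Pcsk1 and Pcsk2, and Ptprn, had E13.5 sites without a member.

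Over all genes given an E13.5 site the share with a member was 23.4%. Of 10 endocrine transcription factor genes with such a site 1 had a member. This was Neurod1, a driver of endocrine and neuronal differentiation, with a site in its coding exon (chr2:79294222-79294767) and scores of 39 and 40 at E13.5, then 9, 7 and 12 at E18.5. The E13.5 sites of Neurog3, Insm1, Fev, Myt1, St18, Hnf4a, Onecut1, Irx1 and Irx2 were not members. Within 5 kb of a start, 1 of 5 endocrine factor genes with an E13.5 site had a member, against 7 of 10 granule genes. Whether the endocrine list differs from the granule genes or from the share over all genes was not tested. Onecut2, listed with duct cells and progenitors, had a member 73.7 kb from its start, which lay in an intron of St8sia3, 0.172 kb from the start of that gene. Of the hormone and beta-cell genes, Crh, Crhr1, Galr1 and Tph2 had a member, and Sst, Vip and Glp1r had E13.5 sites only. The Crhr1 site was 79.4 kb from its start and nearest to that of Arf2, at 73.9 kb. Tph2, which makes serotonin in neurons, had a site in its UTR with 33 and 31 at E13.5 and 7 and 8 in E18.5 A and C.

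Of genes for neural transcription factors and splicing, 14 of 33 bound genes had a member. They included Scrt1, Scrt2, Npas4, Insm2, Lhx3, Lhx5, Neurod2, the splicing regulators Nova2, Rbfox3, Celf4 and Celf6, the RNA-binding gene Elavl4 and Camta1. The Elavl4 site was 264 kb from its start and nearest to that of Dmrta2, at 110 kb. The intronic site given to Rbfox3 (chr11:118446002-118446650) had 51 and 71 at E13.5, then 13, 10 and 19 at E18.5. Lhx3, with an intact element, had 39 and 50 and then 9, 4 and 15 (chr2:26063524-26064090). Srrm4, a splicing factor of neurons, Elavl3 and the Pou4f genes had E13.5 sites that were not members.

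Ion channels and receptors followed. Potassium channel genes had a member in 7 of 20 bound cases, calcium and sodium channel genes in 6 of 16, all of calcium channel subunits, glutamate receptor and scaffold genes in 8 of 22, and GABA, glycine and nicotinic receptor genes in 5 of 11. Kcnk9 had the most members in its domain, at 22.5, 143.7 and 345.2 kb from its start. The second lay in an intron of Trappc9, and the third was nearest to the start of Col22a1, at 167 kb. Grin1, the obligate NMDA receptor subunit, had scores of 21 and 57 at E13.5, then 9, 12 and 10 at E18.5. Chrnb2, a nicotinic subunit, had 28 and 45, then 16 and 12 in A and B. No member was given to Scn2a1, Scn3b, Scn8a or Scn10a, the bound sodium channel genes.

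In vesicle release, 6 of 14 bound genes for SNARE fusion and priming had a member: Bsn, Cplx2, Nsf, Rims3, Snap25 and Unc13a. Snap25, a core SNARE protein, had an intronic site (chr2:136539762-136540352) with scores of 54 and 56 at E13.5, then 16, 15 and 21 at E18.5. Unc13a (chr8:74195339-74195911) had 34 and 41 and then 11, 22 and 29. Syt2, Syt3, Syt7 and Syt14 were 4 of 8 bound synaptotagmin genes, the calcium sensors of release, with a member in their domain. The Syt2 site was 44.3 kb from its start. That of Syt3, 48.3 kb away, was the site in an intron of Shank1, also counted among the scaffold genes. Within 5 kb of a start 1 of 3 bound synaptotagmin genes had a member. Rph3a, a Rab3 effector, had 2 members, 0.096 and 69.2 kb from its start. Transporters of transmitters and ions were retained in 1 of 12, the chloride exporter gene Slc12a5, which had 2 members. Kinase signalling and Cdk5 genes were retained in 2 of 12, Camk2n2 and Gprin1. The lists of acinar cells, mesenchyme, endothelium and blood, and glia and neurons in pancreas had 5 bound genes in all and no member, beside 23.4% over all bound genes. Duct cells and progenitors had 1 bound gene, Onecut2, with a member. No housekeeping gene of the list was bound.

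**Figure D5:**
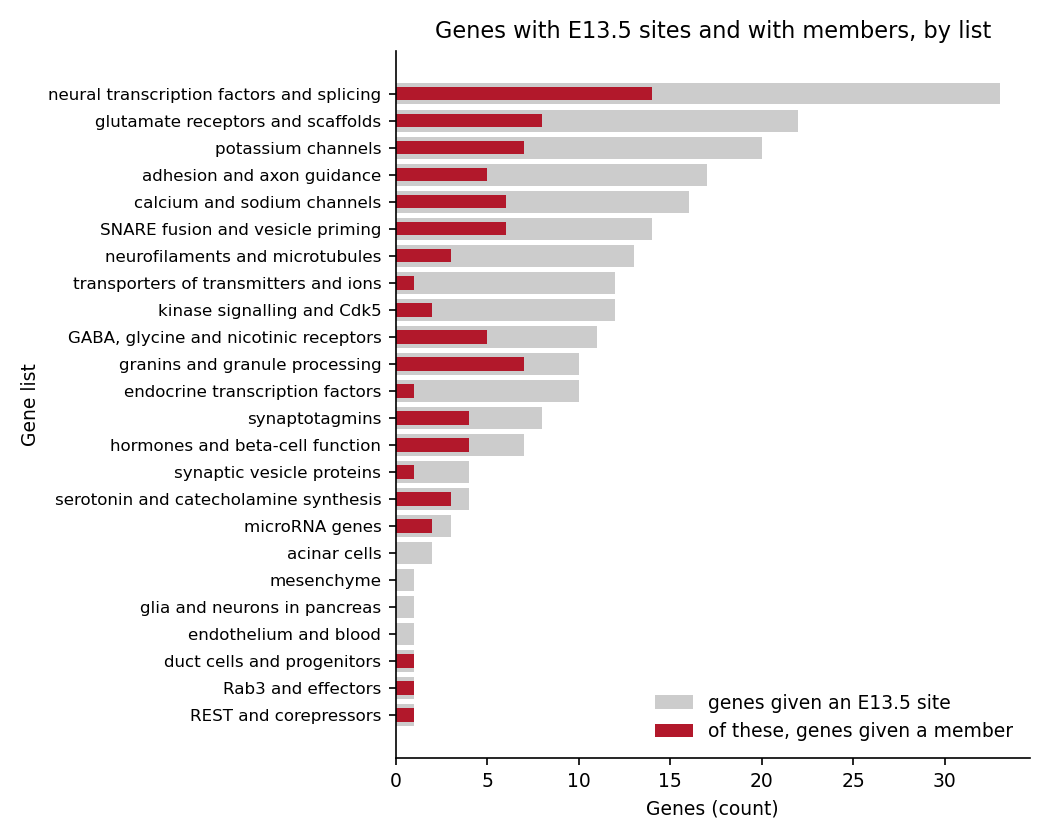
Number of genes given a site in both E13.5 libraries (grey) and, of these, given a member (red), for each list with a bound gene. Granule genes have 7 of 10, neural transcription factors and splicing 14 of 33, and endocrine transcription factors 1 of 10. The share over all genes given an E13.5 site, at any distance from a start, is 23.4%.

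Among microRNA genes, Mir132 had a member 0.13 kb from it (chr11:74986755-74987302), with scores of 30 and 33 at E13.5 and 10 and 15 in E18.5 B and C. Mir137 had one 2.25 kb from it, with 32 and 28 and then 6 and 5 in A and B. Mir129-2 had an E13.5 site only. Counted from the single start used for each gene's domain, genes with 2 members within 50 kb were C1qa and Epha8 (the same 2 sites), Gm10801, Gprin1, Neurod2, Slc12a5 and Unc5a. At Gprin1 the sites were 0.359 and 1.03 kb from the start, with 23 and 25 at E13.5, then 6, 35 and 14 at E18.5 for the nearer, and 38 and 38 and then 14, 7 and 20 for the other.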

How the data were processed

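REST ChIP-seq of E13.5 (2 libraries) and E18.5 (3 libraries) mouse pancreas was analysed from the deposited peak lists, 1 per library. Per the labels and the study's methods, the authors aligned single-end reads to NCBI36/mm9 with Bowtie2 2.2.5, filtered them with SAMtools and called peaks with MACS2 2.1.0. The methods describe E13.5 only. The score that the authors deposited for each peak has whole-number values and no stated unit, so it served as a rank within its library. Entries overlapping within a library were merged. Peaks on all 21 assembled chromosomes lay within the lengths of the reference used (NCBIM37, GENCODE vM1).

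Gene domains ran 5 kb upstream and 1 kb downstream of a start and extended up to 1 Mb to the next domain. Of 576 distinct list genes 569 were matched. Shares have exact 95% binomial intervals and differences Newcombe intervals. Differences within quintiles of E13.5 rank are Mantel-Haenszel-weighted. No p-value was computed, because sites are not replicates and the design compares 2 libraries with 3. Element search, merging and intervals were tested on simulated data. Named sites followed a rule: the 12 members with the highest minimum percentile, up to 4 genes per list, the 5 members lowest at E13.5, the best-ranked sites just outside, 6 members without an RE1, genes with several members, and 6 members with fewest mismatches. Ties went to the higher E13.5 percentile, and further list genes were named after their values were seen. Members and lists were chosen with earlier results of these data known. Python 3.11.15, numpy 2.4.6, pandas 2.3.3 and scipy 1.17.1 were used.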

Additional observations from a re-analysis of the deposited data

Results flagged for a closer look

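Peaks on unplaced sequence were left out of the sites and of every comparison, and they stand above the limit that a count of 0 allows in 3 libraries: 4 in E13.5 A, 4 in E13.5 B and 11 in E18.5 A. The other E18.5 libraries had 3 each. No control peak list was among the files used here.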

How the results depend on the processing

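No paired analysis was possible because libraries that share a letter across stages come from different embryos and no test was made. Among the alternatives tried, the start-site difference remained positive, with an interval above 0 in each, and that of elements with at most 1 mismatch was positive throughout, with an interval that reached below 0 at scores of 13 or more and with equal list lengths, and within quintiles of E13.5 rank also without E18.5 B and with all 3 E18.5 libraries required. With scores of 13 or more there were 50 members, 66.0% with an RE1 (−7.91 points against sites not called), 72.0% near a start, and 20 list genes with a member. With the 226 top-scoring peaks per library there were 107 members, an RE1 difference of 15 points (15.3 within rank) and 42 list genes. Requiring all 3 E18.5 libraries left 110 members and 40 list genes. At most 3 mismatches gave an RE1 in 62.7% (difference 8.12) and at most 5 in 80.5%. Within 1 kb of a start lay 39.4%, and at that limit the start-site difference within rank was 9.98 points (0.144 to 19.8).
Leaving out 1 library at a time gave 142 to 245 members and 46 to 79 list genes with a member, and without E13.5 B the RE1 difference was 7.84 points (1.13 to 14).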
